A study of Mus musculus with 4 samples.

Results

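The direct comparison of cultured astrocytes from the ventral mesencephalon, the floor of the midbrain, with those from the olfactory bulb, the forebrain relay for smell, is described here across genes. It rests on 2 of the 4 arrays of the series, chosen by the brain region given in their labels; the other 2 arrays, from the subventricular zone and the hippocampus, are used for context. Both cultures were primary astrocytes from unmanipulated CD-1 mice, an outbred stock, dissected at postnatal day 3. By the labels' protocols, dissociated tissue was grown in medium with 10% serum, the adherent layer was shaken at 200 rpm to remove loosely attached cells, and the remainder was replated and grown to monolayers with no further treatment. The series' design text gives the number of littermates as 4 and the number pooled as 3, so the number of pups behind a culture is not settled here, and their sex is not given. Each region has 1 array, so the differences below are sizes without a test, no p-value was computed, and a difference between regions cannot be told apart from one between any pair of culture dishes. Of 12393 genes named by 1 symbol, 7416 had a signal above a floor of 122.1 on at least 1 of the 2 arrays and are the genes compared. Each gene is read by its brightest probe set (mean log2 over the 4 arrays), and differences are taken after raising values below the floor to it. Genes named here beyond the 15 largest differences on each side, up to 4 members a list and side, and 7 astrocyte genes given in any case were chosen after their values were seen.

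Astrocytes support neurons by clearing glutamate and potassium, by supplying lactate, lipids and trophic factors, and by secreting matrix. They also respond to injury and infection with cytokines, chemokines and interferon-induced genes. Astrocytes of different brain regions keep some of the transcription factors that patterned the tissue they come from, and serum-grown cultures of young brain can also hold microglia, the resident macrophages, and fibroblasts of the meninges, the membranes around the brain. Astrocyte genes were detected in both cultures. Gja1, the main astrocyte gap junction protein, had a signal of 5988 in the mesencephalic culture and 9010 in the bulb culture. The water channel gene Aqp4 read 1956 in the mesencephalic and 1574 in the bulb culture, and the glutamate transporter gene Slc1a3 read 641 and 706 in the same order. Gfap, the astrocyte intermediate filament, was 3.77-fold lower in the mesencephalic culture. S100b, a calcium-binding protein, was below the floor there (73) and read 277 in the bulb culture. Slc1a2, the second main glial glutamate transporter, was below the floor in both.

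Across the 7416 genes, 516 (6.96%) were at least 2-fold higher in the mesencephalic culture and 442 (5.96%) were at least 2-fold lower, together 12.9%. These shares are the ones to set beside the list counts below. The median difference over all of them, log2 mesencephalon minus bulb, was -0.07, and 54.9% lay on the lower side. Differences of at least 8-fold numbered 55 on the higher and 34 on the lower side. Of the 516 higher genes, 139 were at or below the floor in the bulb culture, and 169 of the 442 lower genes were at or below it in the mesencephalic culture. For those genes only a bound can be given, written "at least". A gene above the floor in the mesencephalic culture alone could not read lower, and in the bulb culture alone not higher. The side of such genes was fixed by the filter, which holds for the members of every list below. A second probe set of the same gene was above the floor for 181 higher genes, of which 176 lay on the same side and 102 were themselves 2-fold apart. For the lower genes these numbers were 162, 159 and 83. The 8 exceptions were Dctn6, Hspa4, Mcl1, Sfpq and Zfp24 on the higher side and Polr3k, Ttc28 and Zdhhc6 on the lower side. The difference measured by 2 probe sets of one gene scattered by 0.40 (median-based SD, log2, 2123 genes), which is an error of the array reading alone, while the variation from dish to dish is not known. The 18 hybridisation control probe sets read a median of 1.19 times as high on the mesencephalic as on the bulb array (1.09 to 1.43), and the part of this in single results was not tested.

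**Figure D1:**
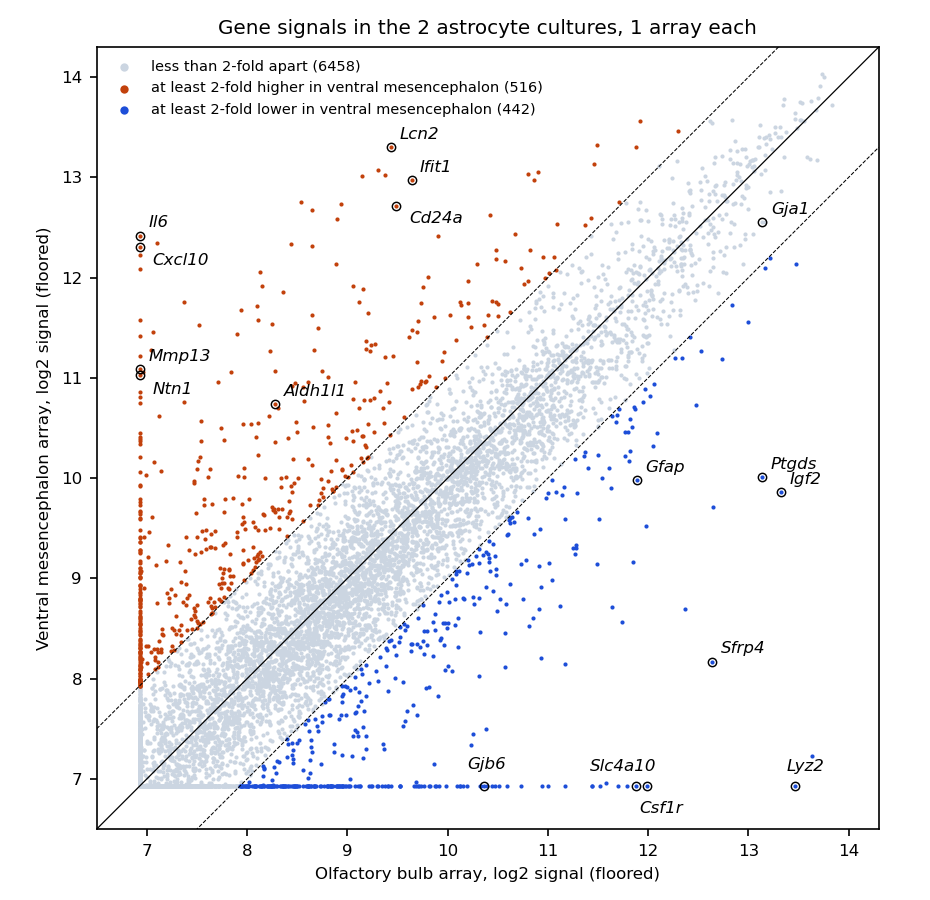
Log2 signal of each of the 7416 genes above the floor, mesencephalic array on the vertical axis and bulb array on the horizontal axis, 1 array each. The 516 genes above the upper dashed line and the 442 below the lower one are at least 2-fold apart, and the points lined up along the left and lower edges are at the floor on one of the arrays.

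The 15 genes with the largest differences on each side separate by function. On the higher side, 9 of the 15 were chemokines, cytokines or interferon-induced genes. Il6, the cytokine interleukin-6, read 5495 in the mesencephalic and 42 in the bulb culture, at least 45-fold higher. Ereg, the growth factor epiregulin, read 2738 in the mesencephalic and 17.2 in the bulb culture, at least 22.4-fold higher. Crct1, a gene of the epidermal differentiation region, read 3053 in the mesencephalic and 20.1 in the bulb culture, and was below the floor on both other arrays. Nr4a1, an immediate early orphan receptor, was at least 19.5-fold higher (2384, against 92.9 in the bulb). The collagenase Mmp13 was at least 17.8-fold higher (2174 against 108). Ntn1, the axon guidance cue netrin-1, was at least 17.1-fold higher (2085 against 69.6); its other probe set was below the floor on both arrays. Fbln2, the matrix protein fibulin-2, read 2130 in the mesencephalic and 125 in the bulb culture, the second value lying just above the floor.

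On the lower side, 11 of the 15 are genes of macrophages and microglia. Lyz2, lysozyme, had the largest difference of all genes, at 82.3 in the mesencephalic and 11249 in the bulb culture, at least 92.1-fold lower. Its near-identical neighbour Lyz1 read 150 in the mesencephalic and 12646 in the bulb culture, and the probe sets of the pair may share target RNA. The other 4 were not macrophage genes. Slc4a10, a sodium and bicarbonate transporter, was at least 30.9-fold lower in the mesencephalic culture (96.9, against 3774 in the bulb). Cldn11, a claudin of tight junctions, read 124 in the mesencephalic and 3052 in the bulb culture, a 24.5-fold difference. Sfrp4, a secreted Wnt modulator, was 22.2-fold lower (287 against 6384). Clca3a2, a chloride channel regulator, was at least 13.9-fold lower (25.6 against 1696). These 4 were high in the bulb culture alone: the subventricular zone and hippocampus arrays read 37.4 and 113 for Slc4a10, 33 and 320 for Cldn11, 118 and 292 for Sfrp4, and 10.3 and 4.5 for Clca3a2.

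**Figure D2:**
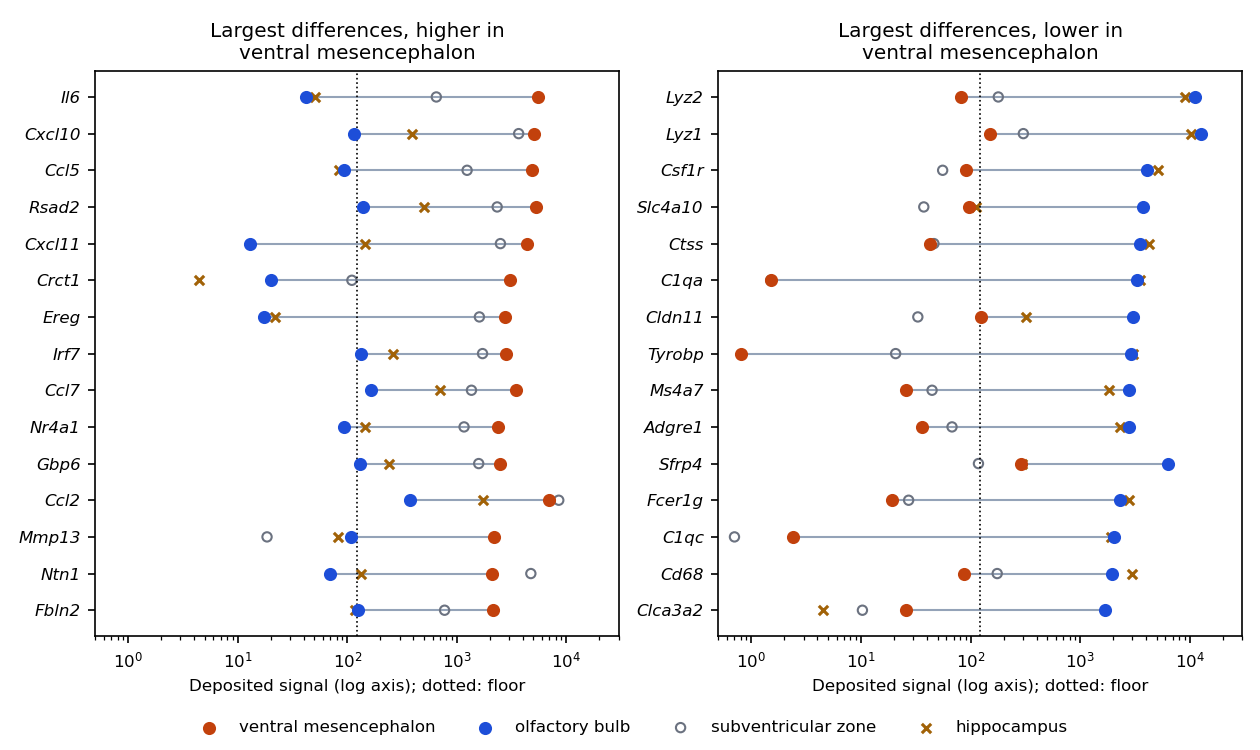
Deposited signal on a log axis for the 15 genes with the largest difference in each direction, on all 4 arrays, with the floor as a dotted line. For the higher genes, the subventricular zone array (open circles) often lies between the mesencephalic and bulb arrays, while for the macrophage genes at right the hippocampus array (crosses) lies beside the bulb array.

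Interferon-induced genes made up the list with the largest share of higher members. These genes are switched on by interferons through factors that include Stat2 and Irf9, and their products block viral replication or present antigen. Of 47 members on the array 46 were above the floor, 38 (82.6%, against 6.96% of all genes compared) were at least 2-fold higher in the mesencephalic culture and none was 2-fold lower. The median log2 difference was 2.12, against -0.07 for all genes, and was also 2.12 over all 47 members. All 46 were above the floor in the mesencephalic culture and 32 in the bulb culture. Those above it in the mesencephalic culture alone could not read lower. The chemokine Cxcl10 read 5090 in the mesencephalic and 114 in the bulb culture, at least 41.7-fold higher. The chemokine Cxcl11 read 4355 against 13, at least 35.7-fold; its second probe set read 161 and 8.1, the bulb value again below the floor. Rsad2, the antiviral protein viperin, read 5230 in the mesencephalic and 138 in the bulb culture, a 38-fold difference. The transcription factor Irf7 was 21.1-fold higher (2810 against 133) and the guanylate-binding protein Gbp6 18.9-fold higher (2481 against 131). The 8 members not called included the membrane proteins Ifitm1 (5166 and 7749), Ifitm2 (6066 and 6213) and Ifitm3 (14064 and 10482, mesencephalic value first), which were abundant in both. The proteasome subunit Psmb10 (1049 and 896), Trim25 and Ifi35 were within 2-fold as well, while Oas3 (131 and 5.7) and Sp100 (164 and 48.4) were below the floor in the bulb culture, so their size has only a bound. The signalling factors Irf9 (log2 difference 1.24) and Irf1 (1.19) were higher by a little over 2-fold, and Stat2 read 295 in the mesencephalic culture and 90.3, below the floor, in the bulb culture (a log2 difference of at least 1.27). The interferon gene Ifnb1 was below the floor in both cultures, at 39.8 in the mesencephalic and 7.2 in the bulb culture, and the receptor gene Ifnar1 read 446 and 495. In none of the 38 higher genes was the hippocampus array nearer to the mesencephalic than to the bulb value, while the subventricular zone array was nearer to the mesencephalic value in 21. In 19 of the 38 the mesencephalic culture was at least 2-fold above all 3 other arrays.

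Promoters of the interferon list are shown because most of its members were higher together. RefSeq start regions of 300 bases, running 250 bases before to 50 bases after each start on build GRCm38.p6, were searched on both strands for GAAA followed by any 2 bases and GAAA again, the core of the interferon-stimulated response element (ISRE). It was found in 18 of the 35 members of the list that matched a window (51.4%), against 4.09% of the genes above the floor and 3.84% of all genes on the array with a window. Among all 516 higher genes it was in 42 of the 386 with a window (10.9%), and among the 442 lower genes in 21 of 339 (6.19%). A match is a description of letters and not a bound site. The windows of Rsad2 (chr12:26456403-26456702, minus strand), Cxcl10 (chr5:92348840-92349139, minus strand), Ifit1 (chr19:34640639-34640938, plus strand) and Ifit3 (chr19:34583279-34583578, plus strand) follow 5′ to 3′ in gene orientation, with matches in capitals. The adjacent genes Ifit1 and Ifit3, which encode antiviral RNA-binding proteins, were chosen after their values were seen: Ifit1 read 8007 in the mesencephalic and 796 in the bulb culture, and Ifit3 read 8274 and 568. The first match starts at position -120 from the start in Rsad2, -213 in Cxcl10, -104 in Ifit1 and -156 in Ifit3, and Ifit1 and Ifit3 each hold 2.
Rsad2: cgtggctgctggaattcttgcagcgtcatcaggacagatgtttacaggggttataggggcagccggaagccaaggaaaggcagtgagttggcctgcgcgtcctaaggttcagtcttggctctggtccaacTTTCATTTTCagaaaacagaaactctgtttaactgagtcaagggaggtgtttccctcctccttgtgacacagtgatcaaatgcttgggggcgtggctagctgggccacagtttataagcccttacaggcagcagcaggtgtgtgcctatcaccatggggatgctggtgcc
Cxcl10: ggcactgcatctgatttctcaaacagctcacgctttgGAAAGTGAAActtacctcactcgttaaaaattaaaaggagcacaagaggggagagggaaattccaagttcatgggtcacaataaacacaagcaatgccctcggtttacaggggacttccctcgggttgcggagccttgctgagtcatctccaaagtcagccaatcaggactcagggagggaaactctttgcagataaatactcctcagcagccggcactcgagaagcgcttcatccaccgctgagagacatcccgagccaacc
Ifit1: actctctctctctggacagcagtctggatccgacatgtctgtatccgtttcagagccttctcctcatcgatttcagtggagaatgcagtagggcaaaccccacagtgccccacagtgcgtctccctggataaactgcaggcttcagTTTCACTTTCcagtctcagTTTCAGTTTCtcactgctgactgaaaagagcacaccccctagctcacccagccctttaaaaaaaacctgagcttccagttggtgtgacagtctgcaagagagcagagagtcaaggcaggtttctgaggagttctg
Ifit3: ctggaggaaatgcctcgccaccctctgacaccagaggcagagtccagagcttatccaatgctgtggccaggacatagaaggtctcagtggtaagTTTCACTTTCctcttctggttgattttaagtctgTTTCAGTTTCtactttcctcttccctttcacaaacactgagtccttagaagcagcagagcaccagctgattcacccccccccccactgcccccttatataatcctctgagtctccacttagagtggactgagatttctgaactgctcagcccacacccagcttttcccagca

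Several chemokines and acute inflammation genes were also higher in the mesencephalic culture. Chemokines are small secreted proteins that draw in leukocytes. Ccl2 and Ccl7, which attract monocytes, read 6872 and 3467 in the mesencephalic culture, against 372 and 165 in the bulb culture. Ccl5 read 4803 in the mesencephalic and 92.5 in the bulb culture, at least 39.3-fold higher, and Ccl8 read 1797 and 96.6. Those 4 were the members of the CC chemokine and receptor list at least 2-fold higher; Ccl9 was at least 3.22-fold lower, and its second probe set read 35.6 in the mesencephalic culture, below the floor, and 134 in the bulb culture. In all, 7 of the 28 members on the array were above the floor. Among CXC and CX3C members 6 of 14 were higher (42.9%, against 6.96%) and 1 lower (7.14%, against 5.96%). Their median was 0.20, and 6 of the 14 lay below the bulb value. Beside Cxcl10 and Cxcl11, the neutrophil attractant Cxcl5 read 3878 in the mesencephalic and 283 in the bulb culture, and Cxcl1 read 8283 and 667. The homeostatic chemokine Cxcl12 was within 2-fold (1306 and 1773), as was its receptor Cxcr4 (237 and 311).

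Of 57 interleukin, TNF family and acute inflammation genes on the array, 37 were above the floor, all 37 in the mesencephalic and 26 in the bulb culture. Of the 37, 22 (59.5%, against 6.96% of all genes compared) were at least 2-fold higher and none was 2-fold lower. The median was 1.29, and 0.43 over all 57. Members above the floor in the mesencephalic culture alone could not read lower, so their side was fixed by the filter. The acute phase gene Saa3 read 6533 in the mesencephalic and 401 in the bulb culture, 16.3-fold higher. Lcn2, the iron-binding lipocalin of reactive astrocytes, read 10077 and 694. Ptgs2, the inducible prostaglandin synthase, read 6113 in the mesencephalic and 479 in the bulb culture. Some regulators of NF-kB signalling, chosen after their values were seen, were higher. Tnfaip3, an inhibitor of the pathway, read 1070 in the mesencephalic culture and 0.5 in the bulb culture, Nfkbiz, a nuclear cofactor, read 5113 and 400, and the inhibitor Nfkbia read 8960 and 2818. The cytokine genes Tnf (2.5 and 96.8) and Il1b (16.7 and 50.4) were below the floor in both. The promoter window of Il6 (chr5:30012864-30013163, plus strand) is shown because Il6 led the list and holds the NF-kB form searched, GGGA, any base and TTTCC, on both strands, at position -44. That form was in 3 of 29 windows of the list (10.3%), in 8 of 386 of the higher genes (2.07%), in 1 of 339 of the lower genes (0.295%) and in 0.528% of those above the floor.
Il6: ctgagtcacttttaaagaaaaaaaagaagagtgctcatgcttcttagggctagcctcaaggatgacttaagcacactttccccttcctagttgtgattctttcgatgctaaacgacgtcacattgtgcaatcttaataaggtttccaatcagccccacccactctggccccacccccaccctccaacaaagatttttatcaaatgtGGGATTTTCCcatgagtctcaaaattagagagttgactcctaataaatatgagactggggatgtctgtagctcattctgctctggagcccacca

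Immediate early genes, which are transcribed soon after a stimulus, lay on the same side. Of 27 above the floor 14 (51.9%, against 6.96% of all genes compared) were at least 2-fold higher. The 1 lower gene made up 3.7%, against 5.96%. The median was 1.03, and 0.82 over all 30 on the array. All 27 were above the floor in the mesencephalic culture and 22 in the bulb culture. Members above it in the mesencephalic culture alone, Nr4a1 and Fosl1 among them, could not read lower, so their side was fixed by the filter. After Nr4a1, Fosl1, a subunit of the factor AP-1, was at least 9.73-fold higher (1188 in the mesencephalic and 28.9 in the bulb culture). Maff was 8.17-fold higher (1521 against 186) and Myc 4.59-fold (1745 against 380). The antiproliferative gene Btg2 was 3.86-fold lower (632 against 2440), with a second probe set at -0.06. The hippocampus array lay nearer to the bulb value in all 14.

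Markers of microglia and macrophages stood on the other side. Of 39 members on the array 34 were above the floor, all 34 of them in the bulb culture and 4 in the mesencephalic culture. None was 2-fold higher and 28 (82.4%, against 5.96% of all genes compared) were at least 2-fold lower in the mesencephalic culture (median -2.25). Members above the floor in the bulb culture alone entered through that array, so their side was fixed by the filter. Over all 39 members the median was -2.08. The summed signal of the 39 was 3218 in the mesencephalic and 53013 in the bulb culture, beside 3422 in the subventricular zone and 69853 in the hippocampus. In bulk RNA, fewer cells of a type cannot be told apart from less RNA per cell. Csf1r, the receptor on which microglia depend for survival, read 90.9 in the mesencephalic and 4073 in the bulb culture. The protease Ctss read 42.8 and 3548, the complement gene C1qa 1.5 and 3325, and the adaptor Tyrobp 0.8 and 2940. Adgre1, a macrophage surface receptor, read 35.9 in the mesencephalic and 2782 in the bulb culture, and Mrc1, the mannose receptor of perivascular macrophages, read 1.2 and 450. The microglial receptor Cx3cr1 read 11.9 and 288, while P2ry12 and Itgam were below the floor in both. In the mesencephalic culture the 4 members above the floor were Cd14 (368, against 1794 in the bulb), Mpeg1 (412 against 1920), Cd53 (320 against 1095) and Cyba (1334 against 2492). The interferon and chemokine genes were higher in the culture in which 4 of the 39 macrophage markers were above the floor. Whether these differences are related was not tested. The promoter window of Ctss (chr3:95526536-95526835, plus strand) is shown because Ctss holds GAGGAAGT, searched on both strands, a form bound by the macrophage factor PU.1, which starts at position -2 on the reverse strand. That form was in 3 of 24 windows of the list (12.5%), and in 3.33% of the genes above the floor. It was in 19 of 339 windows of the lower genes (5.6%) and in 10 of 386 of the higher genes (2.59%). The ISRE form was in 4 of the same 24 windows (16.7%), and the Ctss window holds 1 match to it, left in lower case here.
Ctss: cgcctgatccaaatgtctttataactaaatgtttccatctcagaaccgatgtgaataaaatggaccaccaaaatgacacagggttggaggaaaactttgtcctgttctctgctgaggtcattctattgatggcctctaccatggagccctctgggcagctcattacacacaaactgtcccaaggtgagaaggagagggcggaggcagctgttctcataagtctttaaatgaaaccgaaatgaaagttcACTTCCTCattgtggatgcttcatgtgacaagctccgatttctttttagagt

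Complement and lysosomal genes went both ways. Complement components tag cells and microbes for removal. Of 17 above the floor 4 (23.5%, against 6.96% of all genes compared) were higher and 8 (47.1%, against 5.96%) lower in the mesencephalic culture. The lower genes were the 3 macrophage-made C1q chains, the receptor C3ar1 (31.7 and 679), properdin, Cfp (4.5 and 377), and 3 genes detected in both cultures, the C1 inhibitor Serping1 (1903 and 4024), Clu (2477 and 5912) and the regulator Cr1l (333 and 683). The higher ones were the regulator C4bp (1579 in the mesencephalic and 139 in the bulb culture, 11.3-fold) and the early proteases C1s1 (1311 and 312), Masp1 (1352 and 341) and C1ra (934 and 465). Among 32 lysosome and phagocytosis genes 2 (6.25%, a share near that of all genes) were higher and 7 (21.9%) lower. Gpnmb, a glycoprotein of phagocytic cells, was 7.59-fold lower (420 against 3184), and the protease Ctsc 4.16-fold lower (505 against 2099). Of antigen presentation genes, the class I chain H2-K1 read 11256 in the mesencephalic and 5038 in the bulb culture. H2-D1 was 3.57-fold higher by its brightest probe set, but the mean of its probe sets gave -0.16 (log2), and class I genes are similar enough to share probes. The class II genes H2-Ab1 and Cd74 were below the floor in both.

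**Figure D3:**
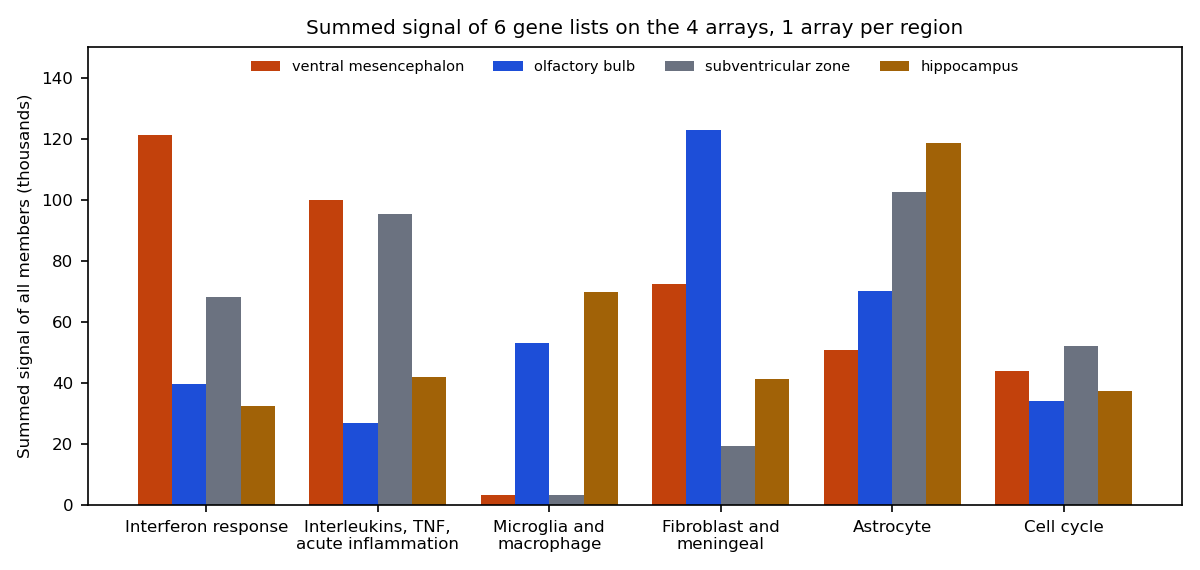
Summed deposited signal of all members of 6 gene lists on the 4 arrays (1 per region, scale as labelled on the axis); lists hold different numbers of probe sets, so heights are comparable within a list. The microglial sum is 3218 in the mesencephalic and 53013 in the bulb culture, and the interferon sum 121061 and 39664.

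Fibroblast and meningeal markers were abundant in both cultures and differed in kind. Of 37 above the floor 3 (8.11%, against 6.96% of all genes compared) were higher in the mesencephalic culture and 13 (35.1%, against 5.96%) lower. The median was -0.71, and the summed signals were 72431 (mesencephalic) and 122815 (bulb), beside 19211 for subventricular zone and 41255 for hippocampus. By their brightest probe sets fibrillar collagen genes were close: Col1a1 read 7145 in the mesencephalic and 6994 in the bulb culture, and Col3a1 9394 and 10549. Their second probe sets lay lower in the mesencephalic culture, at -0.66 for Col1a1 and -1.01 for Col3a1 (log2). The proteoglycan decorin (Dcn) read 6320 and 7039. The growth factor Igf2, which the meninges secrete, was 11.1-fold lower in the mesencephalic culture (928, against 10268 in the bulb). Ptgds, the prostaglandin D synthase of arachnoid cells, was 8.78-fold lower (1030 against 9048). The proteoglycan Ogn was 7.69-fold lower (835 against 6417) and vitronectin, Vtn, at least 9.09-fold lower (25.5 against 1110). The 3 higher members were Fbln2, the keratan sulphate proteoglycan Lum (1048 against 128) and the surface glycoprotein Thy1 (565 against 250). In 12 of the 13 lower members the bulb culture was at least 2-fold above all 3 other arrays.

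Transcription factors of the neural crest and the meninges also differed. Of 21 above the floor 1 (4.76%, against 6.96% of all genes compared) was higher in the mesencephalic culture and 6 (28.6%, against 5.96%) lower. In each of those 6 the bulb culture was at least 2-fold above all other arrays. Tfap2b, an early neural crest factor, was at least 10.6-fold lower (11.6, against 1289 in the bulb), and its paralogue Tfap2a at least 3.96-fold (67.6 against 484). Six2 was 7.36-fold lower (181 against 1330), Foxc2, a forkhead factor of meningeal mesenchyme, 5.49-fold (736 against 4041) and Osr1 2.69-fold (719 against 1931). Sox10, the remaining one, is taken up with the ensheathing cell markers. Foxc1 (2041 and 3515), Twist1 (692 and 485) and Prrx1 (1285 and 1847) were within 2-fold. The higher gene was Msx2 (317 against 98.8). Retinoid genes, which the meninges also use, were 5 lower (41.7%) and none higher out of 12. Among the 5 were the retinaldehyde dehydrogenase Aldh1a1 (270 against 1051) and the receptor Rarb (151 against 495). Aldh1a2, the enzyme of meningeal retinoic acid synthesis, read 847 in the mesencephalic and 618 in the bulb culture.

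Matrix genes went both ways, and the lists differed. Of 29 collagen and collagen-processing genes none was higher and 3 were lower (10.3%, against 5.96% of all genes compared): Col14a1 (46.7, against 899 in the bulb), Col6a2 (1024 against 2972) and Col6a1 (1651 against 3359). Col6a1 came within 2-fold when the arrays were centred on their common genes. Among 47 proteoglycans and glycoproteins 9 (19.1%, against 6.96% of all genes compared) were higher and 8 (17%) lower. Tenascin C, Tnc, a glycoprotein of growing and injured tissue, was 6.89-fold higher in the mesencephalic culture (2143, against 311 in the bulb). The matricellular gene Ccn5 read 966 in the mesencephalic and 73.8 in the bulb culture, while its family member Ccn3 read 1699 and 5705. Osteomodulin, Omd, was at least 10.5-fold lower (46.4 against 1278) and periostin, Postn, 4.08-fold lower (605 against 2471). Of 16 basement membrane genes none was higher and 3 (18.8%, against 5.96%) were lower. The lower ones were the nidogens Nid1 (1152 against 3600) and Nid2 (179 against 420) and the laminin chain Lamb2 (567 against 1268). Matrix proteases and their inhibitors ran 9 higher (33.3%) and 5 lower (18.5%) out of 27. Stromelysin-1, Mmp3, read 2981 in the mesencephalic and 305 in the bulb culture, and the protease inhibitor Timp1 read 8024 and 1864. The granzyme gene Gzme was at least 14.1-fold higher (1721 against 1.4), where other granzymes of the cluster may share its probes. The membrane proteases Adam8 (45.9 against 936) and Mmp16 (391 against 1844) were lower.

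Astrocyte genes did not move as a block. Of 40 above the floor 5 (12.5%, against 6.96% of all genes compared) were higher in the mesencephalic culture and 17 (42.5%, against 5.96%) lower. Above the floor were 33 in the mesencephalic and 39 in the bulb culture. Members above it in 1 culture alone had their side fixed by the filter. The median was -0.57, and -0.34 over all 44 on the array. The summed signals were 50903 (mesencephalic) and 69987 (bulb), beside 102618 in the subventricular zone and 118570 in the hippocampus. Gfap read 1007 in the mesencephalic and 3800 in the bulb culture, and both of its probe sets gave the same side. Gjb6, connexin 30, was at least 10.8-fold lower (11.8, against 1313 in the bulb), and Gjb2, connexin 26, 12.8-fold lower (413 against 5291), whereas connexin 43, Gja1, was within 2-fold. The serine protease Htra1 was 6.47-fold lower (571 against 3696) and the glycolytic enzyme Aldoc 5.12-fold lower (564 against 2884). The phospholipase Pla2g7 was 3.86-fold lower (644 against 2484). Glutamine synthetase, Glul, was 2.27-fold lower (1736 against 3948). The higher members were led by F3, tissue factor, which read 3793 in the mesencephalic and 574 in the bulb culture. Dio2, the deiodinase that activates thyroid hormone, was at least 6.33-fold higher (773 against 89.3). Aldh1l1, an enzyme of folate metabolism and a common marker of astrocytes, was 5.5-fold higher (1711 against 311), with its second probe set below the floor on both arrays. Fabp7, the brain fatty acid-binding protein, was 3.62-fold higher (4522 against 1250), and Sparcl1 3.3-fold (1481 against 449). In 9 of the 17 lower genes the mesencephalic culture was at least 2-fold below all 3 other arrays. The glial glutamate, GABA, ion and water list had none of its 24 members above the floor higher and 10 (41.7%) lower (median -0.66). A regulatory subunit of the sodium pump, Fxyd1, was at least 6.71-fold lower (36.7 against 820), and the water channel Aqp1 6.54-fold lower (142 against 929).

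Cholesterol synthesis genes lay mostly on the lower side in the mesencephalic culture. Of 26 cholesterol and fatty acid synthesis genes above the floor none was 2-fold higher and 3 (11.5%, against 5.96%) were lower. Below the bulb value lay 24 of the 26 (median -0.47), against 54.9% of all genes compared. All 26 were above the floor in the bulb culture and 22 in the mesencephalic culture. Members above it in the bulb culture alone could not read higher. The desaturases Scd1 (579, against 1757 in the bulb) and Scd2 (3402 against 7310) and the sterol reductase Dhcr7 (160 against 398) were the 3. The apolipoprotein and lipid handling list was mixed, with 5 higher (26.3%, against 6.96% of all genes compared) and 7 lower (36.8%, against 5.96%) of 19. Apolipoprotein E, Apoe, read 4690 in the mesencephalic and 9548 in the bulb culture, and the chaperone clusterin, Clu, read 2477 and 5912. On the higher side were phospholipid transfer protein, Pltp (6287 and 1370), the lipoprotein receptor Vldlr (809 and 218), the lipid droplet protein Plin2 (4253 and 2061), Lcn2 and Fabp7.

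**Figure D4:**
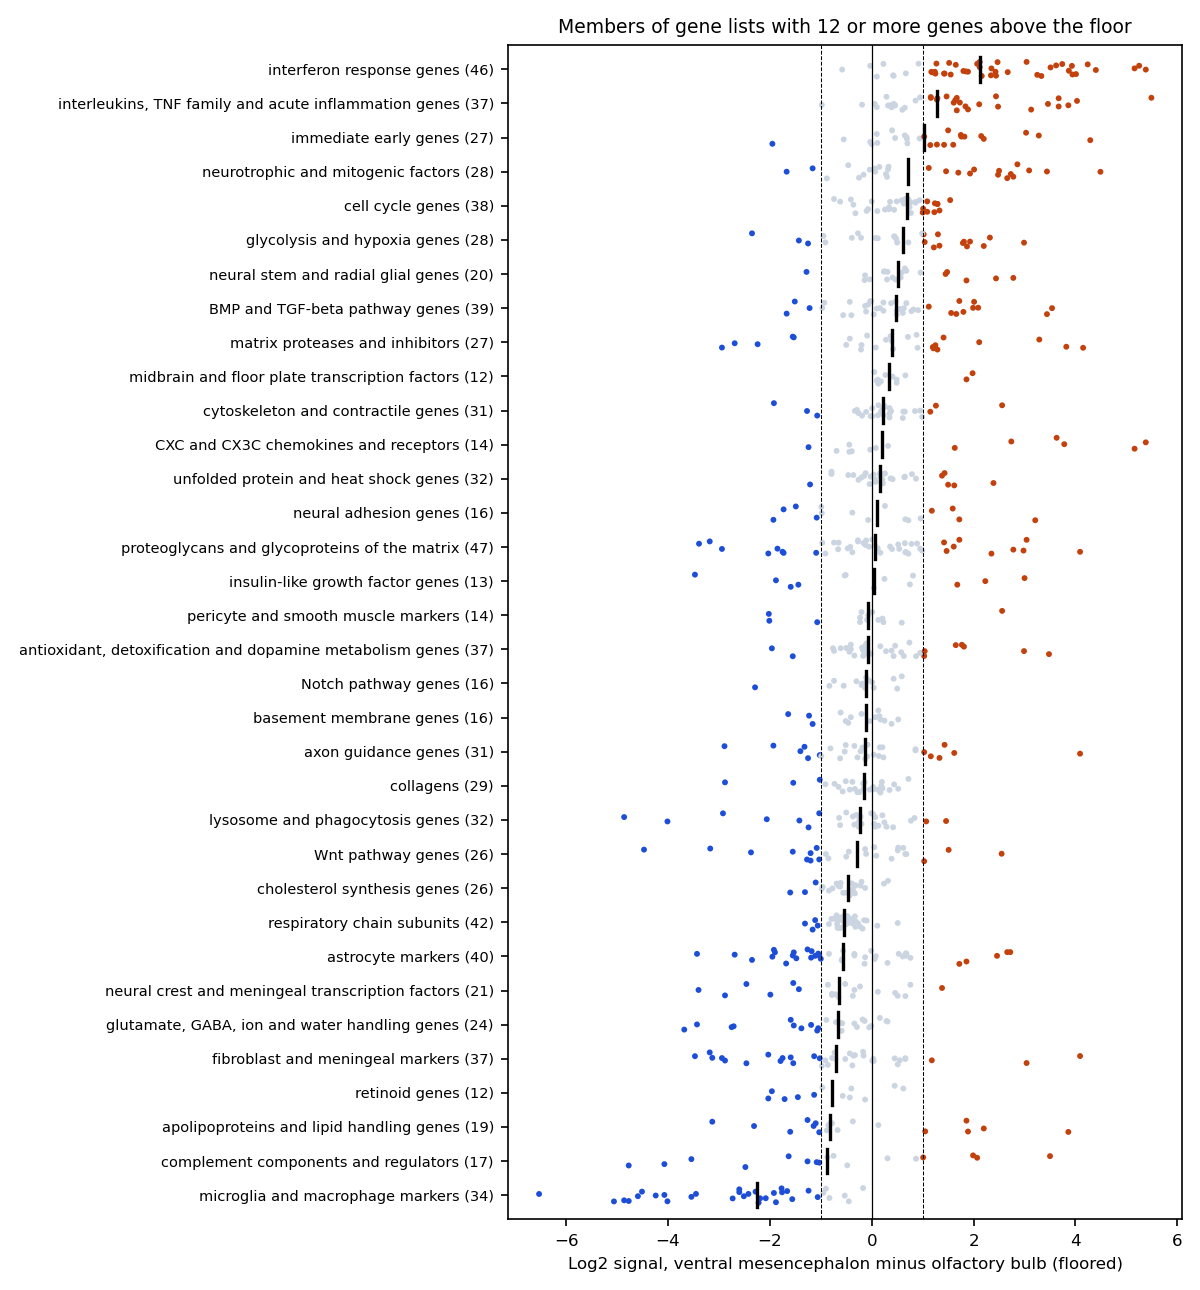
Log2 signal of each list member, mesencephalic minus bulb culture, for the 34 lists with 12 or more genes above the floor (number in brackets), with the list's median as a black bar and 2-fold as dashed lines. Interferon genes have the highest median, 2.12, and microglial markers the lowest, -2.25.

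Most regional transcription factors on the array were below the floor or not called. In the midbrain and floor plate list 12 of 33 genes on the array were above the floor, all 12 in the mesencephalic culture and 3 in the bulb culture. The members above the floor in the mesencephalic culture alone entered through that array, so their side was fixed by the filter. Foxa1, a winged-helix factor of the floor plate, read 483 in the mesencephalic and 0.9 in the bulb culture, at least 3.96-fold higher. En2, an engrailed homeobox gene of the midbrain and hindbrain border, read 442 and 1.8. Those 2 (16.7%, against 6.96% of all genes compared) were the members at least 2-fold higher, and the other 10 were not called. With a floor at the 70th percentile Foxa1 and En2 came within 2-fold as well. Near the floor were Otx2 (134 in the mesencephalic and 1.9 in the bulb culture), Foxa2 (126 and 7.5), Nr4a2 (131 and 26.7) and Nkx2-2 (163 and 7.4). Irx3, above the floor in both, read 1331 and 950. Among telencephalic factors, 8 of 27 were above the floor. None was 2-fold higher and 3 (37.5%, against 5.96% of all genes compared) were lower in the mesencephalic culture. Hopx, a homeodomain-only protein of neural stem cells, was 8.12-fold lower (283, against 2300 in the bulb), the nuclear receptor Nr2f2 3.31-fold (957 against 3167) and the zinc finger factor Zic2 3.19-fold (173 against 551). Among those not called, Lhx2 read 22.2 in the mesencephalic and 145 in the bulb culture, and Dlx2 lay on the other side at 189 and 56.3. None of 28 Hox genes, which mark hindbrain and spinal cord, was above the floor in either culture.

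Neural progenitor genes tended to be higher in the mesencephalic culture. Of 20 above the floor 5 (25%, against 6.96% of all genes compared) were at least 2-fold higher and 1 (5%, against 5.96%) lower (median 0.52). In all 5 higher genes the bulb culture was at least 2-fold below every other array. Beside Tnc and Fabp7 they were the adhesion molecule Vcam1 (3210, against 593 in the bulb), the stem cell factor Sox2 (968 against 348) and Prom1 (333 against 111). The receptor Egfr was 2.43-fold lower (442 against 1072). The surface antigen Cd24a was 9.27-fold higher (6681 against 720). Neuronal markers were scarce, with 6 of 27 above the floor; Stmn2, a microtubule regulator of growing neurites, was 6.11-fold higher (1331 against 218), and Reln, the secreted guide of neuronal layering, was at least 4.44-fold lower (17.5 against 542). Th, the rate-limiting enzyme of dopamine synthesis, was below the floor in both.

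Markers of other cell types were checked beside these results. Olfactory ensheathing cells are glia that wrap smell axons and reach the olfactory bulb. Of 10 of their list above the floor 1 (10%, against 6.96% of all genes compared), Fabp7, was higher in the mesencephalic culture. Lower there were 5 (50%, against 5.96%). The neurotrophin receptor Ngfr was 4.19-fold lower (158, against 662 in the bulb), the adhesion molecule L1cam at least 3.81-fold (57.7 against 465) and the glial factor Sox10 at least 2.91-fold (78.2 against 355); with the mean of all probe sets each of these 3 came within 2-fold. S100b and the myelin protein Pmp22 (924 against 2044) were the others. In all, 8 of the 10 lay below the bulb value. Of the 10, 5 were above the floor in the mesencephalic and 9 in the bulb culture. Members above it in 1 culture alone had their side fixed by the filter. The summed signals of the list were 9052 in the mesencephalic and 9122 in the bulb culture, of which Fabp7, also an astrocyte and progenitor gene, gave 4522 and 1250. Of 6 oligodendrocyte markers above the floor 1 (16.7%, against 6.96% of all genes compared) was higher and 2 (33.3%, against 5.96%) lower. Olig1 was 3.63-fold higher (621 against 171), while Cldn11 (124 against 3052) and Sox10 were the lower ones. Mbp, Mog and Mag were below the floor in both. Of 18 endothelial markers 3 were above the floor, and Pecam1, Kdr and Tie1 were below it in both. Pericyte and smooth muscle markers had 1 higher (7.14%, a share near that of all genes) and 3 lower (21.4%, against 5.96%) out of 14. Their summed signals were 29114 and 29608. Calponin, Cnn1, was 5.91-fold higher (782 against 132), and Rgs5, a pericyte gene, 4.02-fold lower (163 against 655). The choroid plexus marker Ttr was below the floor in both. The part of these cell types in the differences was not tested.

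Of 28 secreted growth factors above the floor 14 were at least 2-fold higher in the mesencephalic culture (50%, against 6.96% of all genes compared) and 2 were lower (7.14%, against 5.96%). Their median was 0.72, and 0.03 over all 42 members on the array. Bdnf, the brain-derived neurotrophic factor, read 1145 in the mesencephalic and 134 in the bulb culture, 8.52-fold higher. Gdnf, the survival factor of dopamine neurons, was at least 3.24-fold higher (396 against 78.5). The activin subunit Inhbb was at least 10.9-fold higher (1326 against 57.1), with a second probe set at 180 and 34, the bulb value below the floor, and endothelin-1, Edn1, at least 7.24-fold (884 against 66.9). The enkephalin precursor Penk read 812 in the mesencephalic and 121 in the bulb culture. The lower members were Gdf10 (98.9 against 389) and midkine, Mdk (605 against 1348). Igf1 (524 against 1425) followed Igf2 on the lower side, as did the receptor Igf2r, which clears Igf2 (273 against 1005). The binding protein Igfbp3 read 978 in the mesencephalic and 93.8 in the bulb culture, and Igfbp7 read 8382 and 1787.

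Of 39 BMP and TGF-beta genes above the floor 10 were higher (25.6%, against 6.96% of all genes compared) and 3 lower (7.69%, against 5.96%). The latent TGF-beta binding protein Ltbp2 was 11.6-fold higher in the mesencephalic culture (2785, against 240 in the bulb). The ligands Tgfb2 (960 against 325) and Tgfb3 (694 against 199) were higher, and Tgfb1 was lower (305 against 867). The Wnt list had 3 higher (11.5%) and 9 lower (34.6%) of 26. The medians of both lists over all members on the array, those below the floor included, were 0.00. The secreted Wnt inhibitor Wif1 was at least 5.84-fold higher (713 against 31.4). Beside Sfrp4, the lower members included the Wnt enhancer Rspo2 (379 against 3409) and the ligand Wnt6 (75.8 against 630). Of 16 Notch genes 1, the ligand-like Dner, was lower (6.25%), a share near that of all genes. Axon guidance genes ran 6 higher (19.4%, against 6.96%) and 6 lower (19.4%, against 5.96%) out of 31. Beside Ntn1, its receptor Unc5c was 7.4-fold lower (162 against 1199), and the semaphorin receptor component Plxna2 3.8-fold lower (204 against 777). The adhesion molecules Cd44 (4685 against 1425) and Alcam (1278 against 4238) lay on opposite sides.

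Of 38 cell cycle genes above the floor 10 (26.3%, against 6.96% of all genes compared) were at least 2-fold higher in the mesencephalic culture. None was 2-fold lower (median 0.69). The ribonucleotide reductase subunit Rrm2 was 2.91-fold higher (1875, against 645 in the bulb), and the mitotic kinase Cdk1 2.37-fold (1014 against 428). Tpx2 and Bub1, also among the 10, came within 2-fold with the mean of all probe sets. All 42 subunits of the respiratory chain were above the floor, and 40 lay below the bulb value, against 54.9% of all genes compared. At least 2-fold lower were 4 (9.52%, against 5.96% of all genes), with a median of -0.55. The ATP synthase subunit Atp5g1 read 910 in the mesencephalic and 2251 in the bulb culture. Of 28 glycolysis and hypoxia genes 12 (42.9%) were higher and 3 (10.7%) lower. The glucose transporter Slc2a1 was 4.98-fold higher (2143 against 430), the vascular peptide adrenomedullin, Adm, 4.61-fold (2068 against 449) and heme oxygenase, Hmox1, 7.93-fold (3177 against 401). Among antioxidant genes the extracellular superoxide dismutase Sod3 was at least 11.1-fold higher (1359 against 53). In the unfolded protein and heat shock list 5 of 32 (15.6%) were higher, led by the stress factor Ddit3 (1666 against 318), and 1 (3.12%) was lower.

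Sex-linked transcripts differed between the cultures. Xist, a noncoding transcript that silences 1 X chromosome, read 18.3 in the mesencephalic and 1110 in the bulb culture. The Y-linked gene Eif2s3y read 252 in the mesencephalic and 18.7 in the bulb culture. The X-linked Kdm6a was 2.71-fold lower (146 against 397), with a second probe set at -0.47. Whether sex contributed to other differences was not tested.

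The other 2 arrays place each difference on one side or the other. Of the 516 higher genes, both other arrays were nearer to the mesencephalic value in 169 and both nearer to the bulb value in 141. The subventricular zone alone was nearer to the mesencephalic value in 185, and the hippocampus alone in 21. Of the 442 lower genes these numbers were 183, 72, 168 and 19. The mesencephalic culture was at least 2-fold above all 3 others in 125 of the higher genes, and the bulb culture at least 2-fold below all 3 in 124. Among the lower genes, the mesencephalic culture was 2-fold below all 3 in 45 and the bulb culture 2-fold above all 3 in 149. With 12.9% of genes 2-fold apart, the pair had the third lowest share among the 6 pairs of regions, which ran between 11.3% and 18.4%. Across genes the 2 arrays correlated with Pearson's r of 0.85 and Spearman's rho of 0.83, where genes are not independent replicates.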

How the data were processed

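RNA of 4 astrocyte cultures, 2 ug each per the labels, was hybridised to 1 Affymetrix expression array per region; the 2 arrays compared here are those of the ventral mesencephalon and the olfactory bulb. The deposited values are signal intensity on a linear scale, 1 per probe set, made with GCOS 1.4 per the submitters' processing notes; which algorithm and settings were used is not stated by any source read here. The mean signal after trimming 2% at each end was 400.0 on both arrays, so the values were scaled to a common mean before deposit. The number of arrays, 1 per region, limits the precision, and no test or error was computed.

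Of 22690 probe sets, 20380 listed 1 gene symbol in the platform annotation, 691 several and 1555 none, and 64 controls were left out. Of those with 1 symbol, 20351 matched a RefSeq gene. For 4956 of 12393 genes with several probe sets, the brightest (mean log2 over the 4 arrays) stood for the gene. The floor of 122.1 is the median of every probe set on the 4 arrays. A difference is the log2 signal of the ventral mesencephalon minus that of the olfactory bulb after flooring, and at least 2-fold was called higher or lower. The rule for names was the 15 largest differences per direction, up to 4 called members per list and direction, and 7 astrocyte genes. The members and the 49 gene lists were chosen with earlier results of these data known. Promoter windows came from RefSeq (GRCm38.p6; 32851 windows). Near-identical genes (lysozymes, class I chains, granzymes, Oas, Gbp and Saa families) may share probes. Alternatives changed the floor, the scaling, the probe set used, the fold and the members counted. Python 3.11.15, pandas 2.3.3, numpy 2.4.6, scipy 1.17.1 and matplotlib 3.10.9 were used, and the calling of differences was tested on simulated data.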

Additional observations from a re-analysis of the deposited data

How the results depend on the processing

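With the floor at the 70th percentile of all signals, 270 genes were at least 2-fold higher and 221 lower, Spearman's rho was 0.75, and list medians were -1.60 for microglial, -1.39 for endothelial (a change of sign, where 3 genes were above the usual floor), -0.37 for ensheathing cell, 3.21 for ependymal and -0.49 for choroid plexus markers, 3.27 for CC and 0.75 for CXC chemokines, 0.58 for adhesion and 1.17 for neuropeptide genes. At the 30th percentile the counts were 874 and 775, rho was 0.88, and medians were -4.04 for microglial, -0.24 for neuronal and 0.99 for choroid plexus markers, 1.23 for midbrain factors, 0.19 for CC chemokines, 0.31 for growth factors and -1.11 for thyroid hormone genes. A 3-fold threshold left 236 higher and 182 lower genes. Taking the mean of all probe sets gave medians of -0.46 for ensheathing cell markers and 0.41 for MHC genes, and turned the sign of H2-D1 (-0.16). Counting all members of a list, below-floor ones included, gave 0.43 for interleukins and acute inflammation, -0.24 for complement, 0.03 for growth factors, -0.09 for glutamate and ion handling, and 0.00 for endothelial, ensheathing cell, ependymal, progenitor, telencephalic, neural crest, MHC, CC chemokine, BMP, retinoid, apolipoprotein, S100, sex-linked and imprinted genes, since most of those members then have no measured difference. Quantile normalization, centring and choosing the probe set over the 2 arrays alone moved no count by more than 1.5 times and no list median by more than 0.4. Of 205 genes named by the rule, 139 kept their side of 2-fold under the 6 alternatives run on single genes (2 floors, 2 scalings, 2 choices of probe set). With the higher floor 35 came within 2-fold and another 18 were below it on both arrays and had no value. The mean of probe sets brought 26 within 2-fold, and centring 1, Col6a1. No paired analysis was possible because each region has 1 array. For the same reason no array could be left out.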

Other observations

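Of the probe sets without a single gene name, 902 were above the floor on at least 1 of the 2 arrays; 68 of them were at least 2-fold higher in the ventral mesencephalon and 41 at least 2-fold lower.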
